A study of Mus musculus with 2 samples.

Results

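The genes described here make, break down and sense retinoic acid, and were chosen by name: Aldh1a1, Aldh1a2, Aldh1a3, Cyp26b1, Rara, Rarb and Rxrg, 7 of the 32285 genes in the deposited tables. Each was followed in 2 mouse libraries of Slide-tags single-nucleus RNA sequencing, in which nuclei of a frozen section take up spatial barcodes before they are dissociated and sequenced with 10x 3′ chemistry. The adult hippocampus came from a perfused male C57BL/6J mouse of 56 days, in a coronal section of 20 μm. The E14 brain came from a whole C57BL/6J embryo at embryonic day 14 bought frozen from a supplier, its sex not given, in a sagittal section. In that library 8 nuclei were classed by cartilage markers, and whether the section held tissue around the brain is not given. No transgene or experimental treatment is named for either animal. With 1 library for each tissue no difference between classes or tissues could be tested. Spatial positions were not analysed here.

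After filtering, 1609 adult nuclei held 15346746 UMIs (unique molecular identifiers, 1 per captured RNA molecule; median 6607 for each nucleus) and 9036 E14 nuclei held 58923882 UMIs (median 4204). Nuclei were placed in classes from UMIs of marker lists that hold none of the 7 genes, and a class name followed by "-like" means only that. Of the E14 nuclei 5981 (66.2%) met no list and stayed unassigned, as did 277 adult nuclei (17.2%, with a median of only 948 UMIs). The 2 libraries shared 1 barcode. Levels are given as CPM, the UMIs of a gene per 1000000 UMIs of the class, with exact Poisson 95% intervals, and shares of nuclei have exact binomial 95% intervals. Both cover counting error only. Intronic reads were counted, so long genes gather more UMIs, and levels are compared between classes for 1 gene and never between genes.

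Retinoic acid is made from vitamin A in successive oxidations. Retinol dehydrogenases give retinaldehyde, which the retinaldehyde dehydrogenases Aldh1a1, Aldh1a2 and Aldh1a3 oxidize to retinoic acid, and Cyp26b1, a cytochrome P450, breaks it down. Retinoic acid acts in the nucleus on the receptors Rara and Rarb, which bind DNA with a retinoid X receptor such as Rxrg. In the developing forebrain the meninges are a known source of retinoic acid, and the striatum is known for Rarb and Rxrg.

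At E14 most UMIs of Aldh1a1 and Aldh1a2 lay in nuclei with meningeal and mesenchymal markers. The mesenchyme-like class held 328 nuclei, was chosen on 8 markers such as collagens, Foxc1 and Slc6a13, and its leading genes included Ptgds, Col3a1, Ranbp3l and Slc6a13. Aldh1a2, the main retinoic acid-making enzyme of the early embryo, gave 240 of its 338 library UMIs there, in 79 nuclei (24.1%, 19.6 to 29.1%), a level of 91.6 CPM (80.4 to 104). All other E14 nuclei together gave 1.74 CPM, a 52.6-fold lower level (41.5 to 67.3). In cortical excitatory-like nuclei, which served as a background for this gene and were deeper (median 7907.5 against 4157 UMIs), 1 of 232 nuclei (0.431%) had an Aldh1a2 UMI. With every nucleus thinned to 1000 UMIs, which left out 24 shallower mesenchyme-like nuclei, 25 of 304 (8.22%, 5.39 to 11.9%) kept one, against 0 of 232 cortical excitatory-like nuclei, which allows up to 1.29%.

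A single mesenchyme-like nucleus held 57 of those Aldh1a2 UMIs among 87528 UMIs of all genes. It was also the nucleus with the most Aldh1a1 UMIs (7) and the most Rarb UMIs (18) of the library. Without it the Aldh1a2 level was 72.3 CPM (62.2 to 83.5), above every other described class, of which thalamic-like nuclei came next (9.23 CPM, 6.43 to 12.8). Of the 328 nuclei 115 also met the list of another class. Leaving those out gave 70.7 CPM, and their part in the level was not otherwise tested.

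Aldh1a1, which encodes a related retinaldehyde dehydrogenase, followed the same class. It had 57 of 109 library UMIs in 34 mesenchyme-like nuclei, a level of 21.8 CPM (16.5 to 28.2; 39.5 as a mean over nuclei), 23.6-fold that of all other nuclei (15.9 to 35.0). The next class, microglia or macrophage-like, stood at 3.80 CPM on 2 UMIs, with an interval ending at 13.7, below the mesenchyme-like one. Aldh1a3, the remaining enzyme of the family, was close to undetected: 25 UMIs in 25 nuclei of the library, 4 of them mesenchyme-like (1.53 CPM, 0.416 to 3.91). In all, 4 of the 7 genes (Aldh1a1, Aldh1a2, Aldh1a3 and Rarb) were 4-fold or more higher in mesenchyme-like nuclei than in the rest, where 4.72% of 19984 genes with at least 20 UMIs passed the same limit. Aldh1a3 passed on those 4 UMIs alone, with an interval of 1.02- to 12.1-fold. In mural-like nuclei Aldh1a3 also passed, on 1 UMI, where 4.77% of genes did. Hypothalamic-like nuclei had 1 such gene, described below with Rxrg, and in the other 10 classes none of the 7 passed, where 0.215 to 5.67% of genes did.

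**Figure D1:**
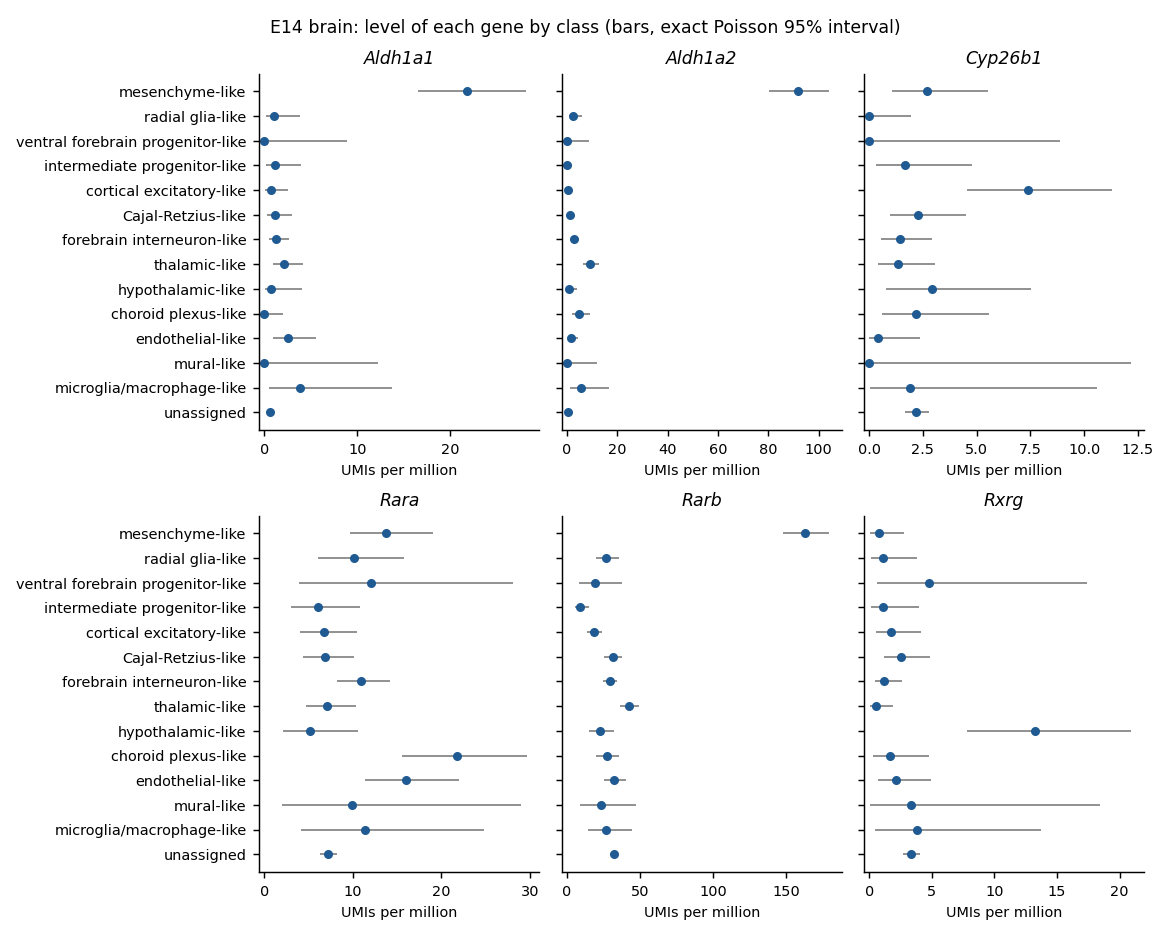
Level of 6 of the genes in each E14 class, in CPM on linear axes that differ between panels, with points for the level and bars for the exact Poisson 95% interval. Aldh1a1 (21.8), Aldh1a2 (91.6) and Rarb (163) stand apart in mesenchyme-like nuclei, while Rxrg is highest in hypothalamic-like (13.2), Cyp26b1 in cortical excitatory-like (7.38) and Rara in choroid plexus-like nuclei (21.8).

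The enzymes were not spread evenly over the mesenchyme-like class. Each nucleus was set by whether its UMIs weighed more to a leptomeningeal list (such as Slc6a13, Foxc1, Ptgds and Ranbp3l; 197 nuclei) or to a skeletal or dermal mesenchyme list (such as Prrx1, Runx2 and Tbx18; 117 nuclei), and 14 shallow nuclei weighed to neither. Slc6a13 and Foxc1 are also markers of the class. The names of the 2 groups stand for the lists only, and the tissue of the nuclei was not tested. The remaining genes of the skeletal or dermal list were sparse. In the E14 library Twist1 had 33 UMIs, Twist2 95, Msx1 104, Alx4 113 and Sp7 13. Runx2 was also at 81.7 CPM in thalamic-like nuclei that met no second list, where Prrx1 was at 2.17 and Tbx18 at 1.86. Tbx18 was at 151 CPM in mesenchyme-like nuclei with an Aldh1a2 UMI. Median depths were 4838 and 4082 UMIs. Aldh1a2 had 218 UMIs in the leptomeningeal nuclei (150.6 CPM) and 22 in the skeletal or dermal nuclei (19.2 CPM). The ratio was 7.85 (5.05 to 12.8), and 6.17 (3.94 to 10.1) without the top nucleus. Aldh1a1 had 48 and 8 UMIs, or 33.2 and 6.98 CPM, a ratio of 4.75 (2.23 to 11.6).

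Of the receptors, Rarb differed less between these nuclei than Aldh1a2 and Aldh1a1 did. Rarb stood at 199 CPM (177 to 223) in the leptomeningeal and 121 CPM (102 to 143) in the skeletal or dermal nuclei, a ratio of 1.64 (1.34 to 2.02). For Rara the levels were 17.3 and 9.60 CPM, with an interval of the ratio from 0.854 to 4.05 that includes no difference. That interval also overlaps the one of Aldh1a1, so Rara cannot be ordered against it. Cyp26b1 had 5 and 2 UMIs, too few to order.

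**Figure D2:**
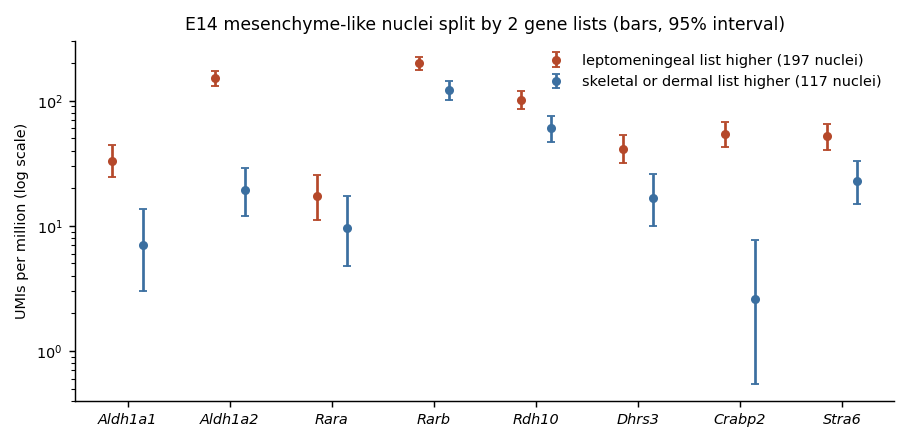
Level in E14 mesenchyme-like nuclei of 4 of the genes and of 4 other retinoid genes, in CPM on a log axis, with 95% intervals, for nuclei that weigh to the leptomeningeal list (197) or to the skeletal or dermal list (117). Aldh1a2 (150.6 against 19.2) and Aldh1a1 (33.2 against 6.98) are further apart than Rarb (199 against 121).

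Other retinoid genes, taken from lists of the pathway, were described in the same class, and over all genes the median log2 ratio was 0.04. Among transport genes Crabp2, which carries retinoic acid to the nucleus, stood at 30.9 CPM (11.8-fold that of all other nuclei). Stra6, the membrane receptor that takes up retinol, reached 38.9 CPM (5.54-fold) and Crabp1, another retinoic acid carrier, 7.64 CPM (4.30-fold). Fabp5 was 3.29-fold higher. Lrat, which stores retinol as esters, had 5 of 14 library UMIs there and was not counted.

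Among 11 other synthesis and breakdown genes only Rdh10, the main embryonic retinol dehydrogenase, passed the limit, at 82.8 CPM against 13.9 in all other nuclei (5.97-fold, 5.11 to 6.95). Dhrs3, which reduces retinaldehyde back to retinol, stood at 30.2 CPM (3.14-fold). Rdh12 and Dhrs9 had no UMI in the class and few in the library (26 and 27). Cyp26a1, a relative of Cyp26b1, had 0 UMIs in the E14 library and Cyp26c1 had 3. Of 12 other nuclear receptors 1 passed, Rarg, the remaining retinoic acid receptor, at 19.5 CPM (4.87-fold), and of 10 corepressors and coactivators none did. Over all genes tested 4.72% passed, so that these counts of 1 or none are near the background. Their median log2 ratios were 0.22 for synthesis and breakdown, 0.74 for the receptors and 0.13 for the cofactors.

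Within the class these genes split by the same lists. Crabp2 stood at 53.9 CPM in leptomeningeal and at 2.62, on 3 UMIs, in skeletal or dermal nuclei. Rdh10 (101 against 60.2 CPM), Dhrs3 (41.4 against 16.6) and Stra6 (51.8 against 22.7) were also higher in the leptomeningeal nuclei, with intervals that do not overlap. Crabp1, at 6.91 against 8.72 CPM, was not.

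Nuclei with an Aldh1a2 UMI were compared with those without, which also differ in depth (median 6938 against 3669 UMIs). Rarb was at 128 CPM (106 to 152) in the 79 nuclei with Aldh1a2 and at 185 (165 to 207) in the 249 without. The thinned counts gave Rarb in 4 of 25 nuclei with Aldh1a2 (16%, 4.54 to 36.1%) and in 66 of 279 without (23.7%, 18.8 to 29.1%), intervals that overlap. For Aldh1a1 the thinned shares with Rarb were 6 of 13 (46.2%, 19.2 to 74.9%) and 64 of 291 (22.0%, 17.4 to 27.2%), which also overlap. No common presence or exclusion of enzyme and receptor could be read at this depth.

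Aldh1a2 outside the mesenchyme-like class lay mainly in nuclei that also met the mesenchyme list. Over the other described classes, 93 such nuclei gave 60 UMIs (34.6 CPM, 26.4 to 44.5), and the 2562 that did not meet it gave 17 UMIs (0.712 CPM, 0.415 to 1.14). Thalamic-like nuclei show this most plainly. Of their 35 Aldh1a2 UMIs 32 came from 27 of 601 nuclei that met both lists (116 CPM, 79.6 to 164), and the other 574 nuclei stood at 0.853. In the thalamic cluster made without marker lists Aldh1a2 was at 0.600 CPM on 2 UMIs. In interneuron-like nuclei 13 of 15 Aldh1a2 UMIs lay in 12 nuclei meeting both lists.

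Choroid plexus-like nuclei did not follow that pattern. Of their 9 Aldh1a2 UMIs 8 were in nuclei that did not meet the mesenchyme list (4.71 CPM, 2.03 to 9.29), above the 0.712 of all such nuclei, although 3 of the 9 came from 1 nucleus. Unassigned nuclei held 19 Aldh1a2 UMIs (0.643 CPM). Whether nuclei meeting both lists are doublets or carry free RNA was not tested beyond leaving out high doublet scores.

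**Figure D3:**
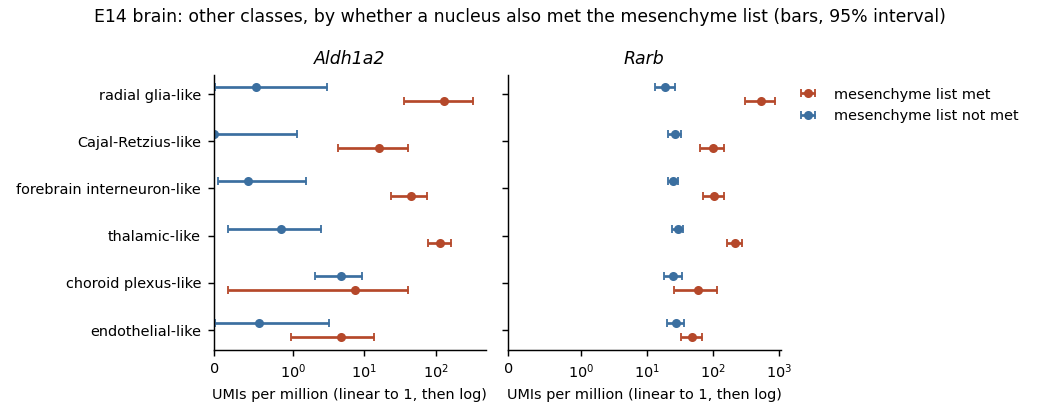
Level of Aldh1a2 and Rarb, in CPM on an axis linear to 1 and log beyond, with 95% intervals, in 6 other E14 classes with at least 5 nuclei that also met the mesenchyme list. In thalamic-like nuclei Aldh1a2 stood at 116 where the list was met and at 0.853 where it was not, and Rarb at 214 and 29.0, so that Rarb is above 0 also in nuclei that did not meet the list.

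Rarb, the receptor gene that is itself a classic target of retinoic acid, was the most widely detected of the 7 at E14, in 1072 nuclei (11.9%). The gene spans 388 kb of chromosome 14 (chr14:16430839-16819156, minus strand, GRCm38) and only 1.36% of that is exonic. Its RefSeq promoter was searched, with those of the other genes, for the element that retinoic acid receptors bind. The element was spelled as 2 half-sites in direct repeat with 1, 2 or 5 bases between, on both strands. A half-site could read AGGTCA, its common variant form AGTTCA, the form that reads GGGTCA or the remaining form that reads GGTTCA. Of the 11 promoters of 6 of the genes, 1 held such a repeat, and Aldh1a3 had no entry. That was Rarb, with a spacing of 5, which 0.0974% of all 32851 promoters hold (0.222% and 0.268% for spacings of 1 and 2). The match is a description of letters, and binding was not measured. The stretch is shown because it is the textbook element of this gene. Only a short stretch before each RefSeq start was searched. The stretch shown lies at chr14:16575483-16575559 on the minus strand of GRCm38.p6. The capitals mark the half-sites, from 53 to 37 bases before the start of the RefSeq transcript. That start lies inside the gene span given above and not at its first base on the minus strand.
Rarb promoter: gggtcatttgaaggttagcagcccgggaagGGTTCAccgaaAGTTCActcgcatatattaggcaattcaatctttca
The run also opens with a GGGTCA that forms no repeat at the spacings searched.

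In mesenchyme-like nuclei Rarb had 428 UMIs in 153 nuclei (46.6%, 41.1 to 52.2%), a level of 163 CPM (148 to 180), 5.38-fold that of all other nuclei (4.83 to 5.98). The thinned share was 70 of 304 nuclei (23.0%, 18.4 to 28.2%). Thinned shares elsewhere were lower, at 24 of 595 thalamic-like nuclei (4.03%, 2.6 to 5.94%) and 1 of 232 cortical excitatory-like nuclei (0.431%, 0.0109 to 2.38%). Without the top nucleus the level was 162 CPM.

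All other classes stood between 9.31 and 42.4 CPM for Rarb. The order ran from thalamic-like (42.4, 36.1 to 49.5) through endothelial-like (32.5), Cajal-Retzius-like (31.4) and interneuron-like nuclei (29.4) down to cortical excitatory-like (18.6, 14 to 24.4) and intermediate progenitor-like nuclei (9.31, 5.42 to 14.9). Below the mesenchyme-like class, each neighbour in this order overlapped the next in its interval, while the ends did not. Rarb too was higher in nuclei that also met the mesenchyme list, at 100 CPM in the 93 such nuclei of other classes, but the 2562 others still gave 551 UMIs (23.1 CPM, 21.2 to 25.1). In thalamic-like nuclei the values were 214 and 29.0 CPM. Unassigned nuclei held 949 of the 2139 Rarb UMIs, at 32.1 CPM (30.1 to 34.2).

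Striatal expression could not be described by class. The striatal list was met by 25 E14 nuclei, under the 30 asked for. Their leading gene was Ebf1, a transcription factor that striatal and other neurons express. Ebf1 is itself on the list that chose these nuclei, so its lead does not describe them independently. Drd1, the receptor of direct-pathway neurons, had no UMI among them and only 25 in the library. Those 25 nuclei held 12 Rarb UMIs in 3 nuclei (32.3 CPM, 16.7 to 56.5) and no Rxrg UMI, where 3 counts would be 8.08 CPM.

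Clusters made without the 7 genes gave a finer view of Rarb among nuclei left unassigned. After the mesenchyme-like cluster (193 CPM), the highest were a cluster of 276 nuclei led by Sema3e, Gm4128 and Fign with Isl1 among its top 10 genes (114 UMIs, 77.5 CPM, 63.9 to 93.1) and one of 267 nuclei led by Gm43824 and Ebf2 with Lmx1b among its top 10 (106 UMIs, 65.4 CPM, 53.6 to 79.1). Their intervals overlap each other, and that of the Ebf2 cluster also overlaps that of the next cluster (39 UMIs, 43.1 CPM, 30.6 to 58.9). A marker counted towards a cluster name if at least 10% of the nuclei held it, at 2 times or more its share in all nuclei. In the Sema3e cluster 2 markers of the striatal list did so, too few for a name, and 236 of its 276 nuclei were unassigned. It held 3 Aldh1a2 UMIs (2.04 CPM) and 1 Rxrg UMI (0.680 CPM).

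**Figure D4:**
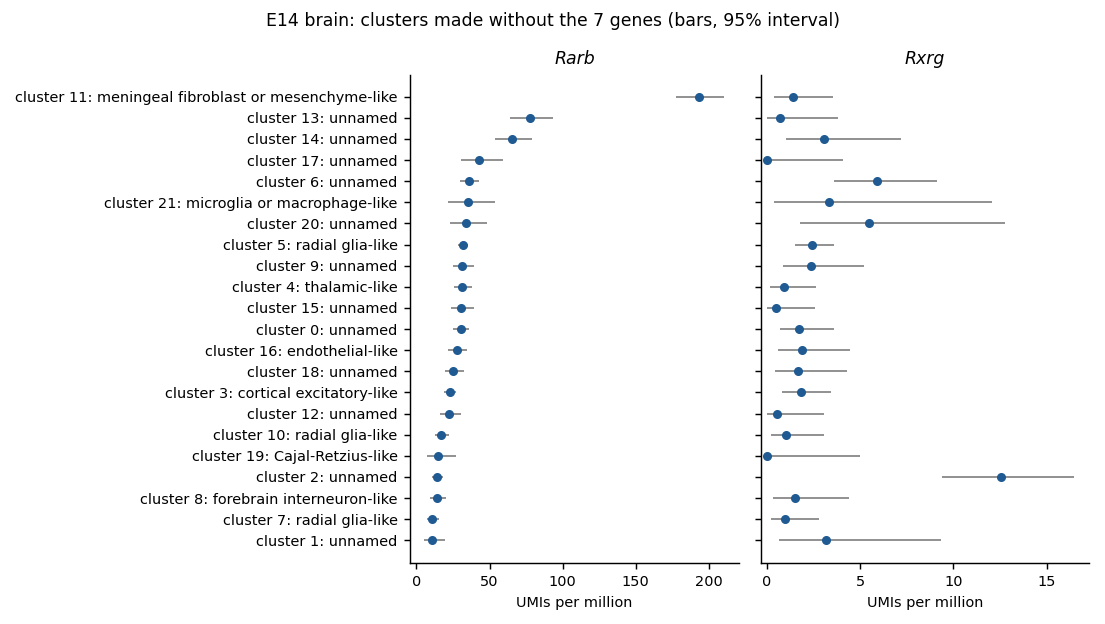
Level of Rarb and Rxrg in the 22 E14 clusters made without the 7 genes, in CPM with 95% intervals, ordered by Rarb and labelled by cluster number and name. The mesenchyme-like cluster leads for Rarb (193), ahead of cluster 13, led by Sema3e (77.5), and cluster 14, led by Gm43824 and Ebf2 (65.4), while Rxrg is highest in cluster 2, led by Sim1 and Otp (12.6), where Rarb is low (14.3).

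Rxrg, the partner receptor with the narrowest known distribution, peaked in hypothalamic-like nuclei, chosen on genes such as Otp and Sim1. There it had 18 UMIs in 15 of 83 nuclei (18.1%), a level of 13.2 CPM (7.84 to 20.9), 5.36-fold that of all other nuclei (3.09 to 8.79), and was the only one of the 7 genes past 4-fold, where 0.651% of genes were. The thinned share was 3 of 83 (3.61%), at the level that a count of 0 allows, so it cannot be ordered against other classes. The interval of the ventral forebrain progenitor-like class (4.81 CPM on 2 UMIs) overlaps it, and the lowest class was thalamic-like (2 UMIs, 0.527 CPM, 0.0638 to 1.90). A larger unnamed cluster of 643 nuclei led by Sim1 and Otp held 52 of 160 Rxrg UMIs (12.6 CPM, 9.38 to 16.5). Mesenchyme-like nuclei had 2 Rxrg UMIs, both in 1 nucleus (0.764 CPM).

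Cyp26b1, the gene of breakdown, was sparse, with 126 UMIs in 103 nuclei. It was highest in cortical excitatory-like nuclei, with 21 UMIs in 13 of 232 nuclei (7.38 CPM, 4.57 to 11.3), and the cortical excitatory-like cluster of 619 nuclei gave 32 UMIs (6.42 CPM, 4.39 to 9.06). The class stood 3.94-fold over all other nuclei (2.34 to 6.34). No UMI was found in 195 radial glia-like nuclei, where 3 counts would be 1.60 CPM, and mesenchyme-like nuclei had 7 (2.67 CPM, 1.07 to 5.51). The interval of the next class, hypothalamic-like (2.94 CPM, 0.801 to 7.53), overlaps that of the cortical excitatory-like class.

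Rara, known as the most generally expressed retinoic acid receptor, was spread over all 13 E14 classes. Its 513 UMIs lay in 457 nuclei, at most 4 in any nucleus. Choroid plexus-like nuclei stood at 21.8 CPM (15.6 to 29.7), endothelial-like at 16 (11.3 to 22.0), mesenchyme-like at 13.7 (9.63 to 19.0) and hypothalamic-like lowest at 5.15 (2.07 to 10.6). Neighbours in this order all overlapped. Choroid plexus-like nuclei were 2.63-fold over all other nuclei for Rara (1.86 to 3.64), with 28 of 95 nuclei (29.5%) holding a UMI at a median depth of 13026. They were also high in Stra6 (51.3 CPM, 7.24-fold) and in Ttr, the carrier of thyroid hormone and retinol-binding protein (74.2-fold).

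Genes whose level followed the 7 most closely over the 13 described E14 classes were found by Pearson correlation of log2(CPM + 10), among 12718 genes that mark no class. For Aldh1a2 they were Sidt1 (r = 0.98), Slc22a6 (0.97) and Tmem150a (0.96), and for Aldh1a1 Slc22a6, Sidt1 and Cldn11 (0.95 to 0.93). For Rarb they were Sidt1 (0.95), Ranbp3l (0.94) and Adam12 (0.93). For Rxrg the closest was Cbln1 (0.94), for Cyp26b1 Gm45486 (0.92) and for Rara Zfp229 (0.95). The points share 1 library, and for Aldh1a2, Aldh1a1 and Rarb the mesenchyme-like class stands far from the others.

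In the adult hippocampus Aldh1a1 was the only one of the enzyme genes with 20 UMIs or more. It gave 449 UMIs in 175 of 1609 nuclei, of which 305 lay in 92 of 166 astrocyte-like nuclei (55.4%, 47.5 to 63.1%). Their level was 319 CPM (284 to 357), 31.9-fold that of all other nuclei (26.1 to 39.2). The thinned share was 34 of 145 (23.4%, 16.8 to 31.2%), with 21 shallower nuclei left out, against 1 of 389 dentate granule-like nuclei (0.257%, 0.00651 to 1.42%). The background in dentate granule-like nuclei, the granule neurons of the dentate gyrus, was 6 UMIs in 391 nuclei (1.13 CPM) at a median of 11532 UMIs against 4004.5 in astrocyte-like nuclei. CA3-like nuclei had none, where 3 counts would be 3.94 CPM.

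Of the 3 genes with at least 20 adult UMIs (Aldh1a1, Rara and Rarb), 2 were 4-fold or more higher in astrocyte-like nuclei, Aldh1a1 and Rarb, where 6.21% of 16282 genes were. In the other 8 adult classes none was, where 1.2 to 9.85% of genes were. Aldh1a2 had 4 UMIs in the library, 3 of them in endothelial-like nuclei. Aldh1a3 had 12 UMIs, and 6 of these lay in 1 CA3-like nucleus of 64602 UMIs. Rxrg had 5 UMIs, 3 of them in 3 of 33 oligodendrocyte precursor-like nuclei, and Cyp26b1 had 11, of which 6 lay in 5 of 37 CA3-like nuclei (7.88 CPM, 2.89 to 17.2).

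**Figure D5:**
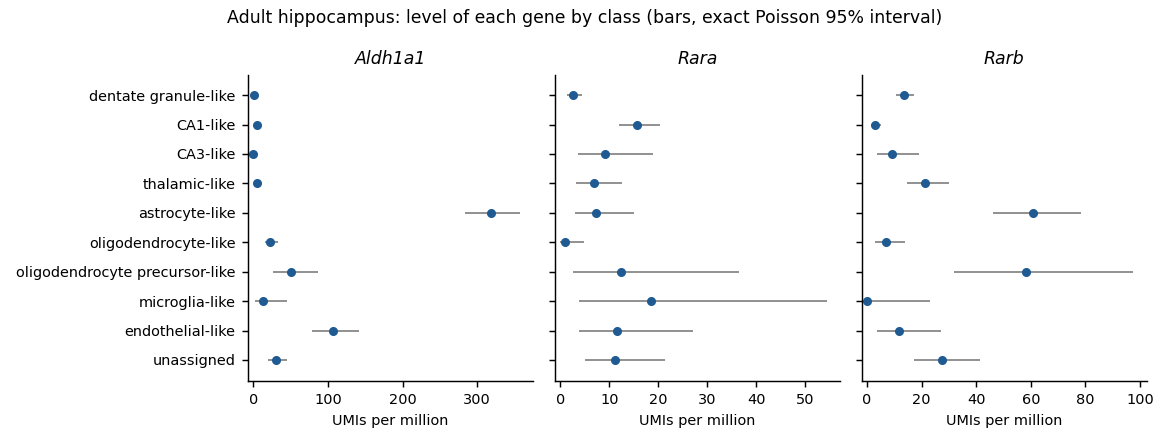
Level of Aldh1a1, Rara and Rarb in each adult class, in CPM on linear axes that differ between panels, with exact Poisson 95% intervals. Aldh1a1 stands apart in astrocyte-like nuclei (319), Rarb is highest in astrocyte-like (60.7) and oligodendrocyte precursor-like nuclei (58.1), and Rara in CA1-like nuclei (15.7) stands above dentate granule-like nuclei (2.63).

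Other adult classes with Aldh1a1 were led by nuclei that also met the astrocyte list. In the described classes apart from astrocyte-like, 45 nuclei met it and held 65 Aldh1a1 UMIs (130 CPM, 100 to 166), and 1087 did not and held 50 (3.93 CPM, 2.92 to 5.19). Endothelial-like nuclei had 46 UMIs (106 CPM, 77.9 to 142). Of these, 36 lay in 15 nuclei that met the astrocyte list (160 CPM) and 10 in 49 that did not (48.2 CPM, 23.1 to 88.6), so the level remained above the 3.93 of all classes. With the 38 endothelial-like nuclei that met any second list left out, 2 UMIs in 26 nuclei remained (29.7 CPM, 3.60 to 107). In oligodendrocyte precursor-like nuclei 11 of 12 Aldh1a1 UMIs lay in 6 nuclei that met the astrocyte list, 7 of them in 1 nucleus.

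Astrocyte-like nuclei were not uniform in Aldh1a1. In clusters made without the 7 genes, 21 astrocyte-like nuclei of a cluster led by Slc6a11, a GABA transporter, stood at 678 CPM (74 UMIs) and 92 of the main astrocyte-like cluster at 303 (208 UMIs). The ratio was 2.23 (1.69 to 2.93), and 1.82 (1.33 to 2.45) without the top nucleus. For Rarb these nuclei stood at 82.4 and 71.5 CPM, a ratio of 1.15 (0.498 to 2.37) that fell to 0.531 (0.139 to 1.45) without the top nucleus. The 52 astrocyte-like nuclei with under 2% of UMIs from Malat1, a nuclear RNA, and a median of 1401.5 UMIs, had Aldh1a1 at 249 CPM (166 to 360) and no Rarb UMI, where 3 counts would be 26.7 CPM. The 114 others stood at 328 and 68.8.

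An RNA on the opposite strand of Aldh1a1, C730002L08Rik, had 371 UMIs in the adult library. The pair overlaps on chromosome 19 (Aldh1a1 at chr19:20492715-20643465, GRCm38), and whether counting kept the strands apart is not given in the sources used here. In astrocyte-like nuclei C730002L08Rik had 204 UMIs (213 CPM), 198 of them in nuclei with an Aldh1a1 UMI. In oligodendrocyte-like nuclei it had 125 UMIs (109 CPM) in 70 nuclei, only 9 of them with an Aldh1a1 UMI, and Aldh1a1 itself was at 22.8 CPM (14.9 to 33.3) there. The 2 RNAs were therefore not counted in 1 fixed ratio across classes.

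Adult Rarb was highest in 2 glial classes. Astrocyte-like nuclei had 58 UMIs in 31 nuclei (60.7 CPM, 46.1 to 78.4) and oligodendrocyte precursor-like nuclei 14 UMIs in 8 of 33 (58.1 CPM, 31.8 to 97.5). Next came thalamic-like (21.3 CPM, 14.4 to 30.2), dentate granule-like (73 UMIs, 13.7 CPM, 10.7 to 17.2) and endothelial-like nuclei (11.6), with CA1-like nuclei at 2.71 CPM (1.3 to 4.99). Oligodendrocyte-like nuclei had 8 Rarb UMIs, 7 of them in 1 nucleus, and microglia-like nuclei had none. In oligodendrocyte precursor-like nuclei 7 of the 14 UMIs lay in 6 nuclei that met the astrocyte list. The other 27 gave 37.6 CPM (15.1 to 77.4), an interval that overlaps that of thalamic-like nuclei.

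Dentate granule-like nuclei differed among themselves in Rarb. Those of the cluster led by Tafa2, Ryr1 and Ahcyl2 stood at 20.4 CPM (56 UMIs) and those of the cluster led by Gsg1l, Trpc6 and Plk5 at 6.70 (17 UMIs). The ratio was 3.04 (1.74 to 5.58), and 2.66 (1.5 to 4.94) without the top nucleus. In the same class Stra6, the retinol uptake receptor, had 228 of 260 library UMIs (42.8 CPM, 13.4-fold that of all other nuclei, 9.22 to 20.0).

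Adult Rara followed another order. CA1-like nuclei, pyramidal neurons of the hippocampus, had 58 of 122 UMIs in 49 of 209 nuclei (15.7 CPM, 11.9 to 20.3), 2.87-fold that of all other nuclei (1.97 to 4.16). Dentate granule-like nuclei stood at 2.63 CPM (1.44 to 4.41) and oligodendrocyte-like nuclei at 0.875 on 1 UMI, while microglia-like nuclei (18.6 CPM) rested on 3 UMIs. Between these 2 neuron classes, Rara was thus higher in CA1-like nuclei and Rarb higher in dentate granule-like nuclei, each with intervals that do not overlap. Against the glial and thalamic-like classes above, dentate granule-like nuclei were not high in Rarb.

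Of 8 other adult synthesis and breakdown genes 2 were 4-fold or more higher in astrocyte-like nuclei, Rdh5 (26.2 CPM, 6.97-fold), a retinol dehydrogenase best known from the eye, and Dhrs3 (35.6 CPM, 5.56-fold). Stra6 was lower there (2.09 against 17.9 CPM in all other nuclei), and of 11 other receptors and 10 cofactors none were 4-fold higher. Over all genes tested 6.21% were. Median log2 ratios were 0.73 for synthesis and breakdown, 0.81 for the receptors and -0.07 for the cofactors, beside -0.04 over all genes. Cyp26a1 had 0 UMIs in the adult library and Cyp26c1 had 3. Over the 9 adult classes the genes closest to Aldh1a1 were Clu (r = 0.99), Mlc1 (0.99) and Prdm16 (0.99), and the closest to Rarb was Tspan3 (0.97), with all points from 1 library and the astrocyte-like class far from the rest for Aldh1a1.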

How the data were processed

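Slide-tags snRNA-seq libraries of 1 adult hippocampus and 1 E14 brain were analysed. The deposited values are raw UMI counts of 32285 genes in each nucleus, made by the authors with Cell Ranger 6.1.2 (adult) and 7.0.1 (E14, per the file headers) against mm10, introns included. CellBender is named in the methods for the embryo. Whether it was applied to the deposited table is not given in the sources used here, and since the header is Cell Ranger's the values were used as uncorrected counts.

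The filter kept nuclei of 500 UMIs or more with less than 5% mitochondrial UMIs, 1609 of 1661 (adult) and 9036 of 9037 (E14). A nucleus met a marker list with 3 distinct markers, 3 times the expected UMIs and a Poisson tail under 0.001, and took the list with the smallest tail. This rule was set after the data had been seen. Classes under 30 nuclei were not described. The genes and lists were chosen with earlier results of these data known. Named genes were the 7 genes, all lists, class markers and, for each gene with 100 UMIs, the 3 closest among genes with 300 UMIs. Some list genes, with the counts of the transport list, are not reported here.

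Levels are sums over nuclei, and shares were also computed after thinning to 1000 UMIs. A count of 0 allows up to 3 counts. Ratios have conditional exact binomial 95% intervals, and genes with 20 UMIs in the library were held against a limit of 4-fold. With 1 library each, no test between groups was made. The computations were checked on simulated data. Clusters came from Seurat 5.3.0 in R 4.3.3 (2000 variable genes without the 7, 30 principal components, resolution 0.8) and were named with 4 markers. Scrublet in scanpy 1.11.5 called only 4 E14 (0.0443%) and 6 adult nuclei (0.373%), too few to be taken as a working call. Doublets were therefore kept, and the 653 and 21 highest scores were left out as an alternative. Other alternatives changed the marker rule, the thinning, the summing and the nuclei left out. Promoters are from RefSeq (GRCm38.p6) and gene spans from GENCODE.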

Additional observations from a re-analysis of the deposited data

How the results depend on the processing

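Of 155 alternative values for 20 results 131 stayed close to the main value and 24 moved. Levels and shares were held against the counting interval, and counts of genes past 4-fold against a fixed ratio. Whether a value turned its direction was not assessed. The level of Aldh1a2 in E14 mesenchyme-like nuclei (91.6 CPM) was 117 without likely doublets, 70.7 without nuclei that met a second list and 72.3 without the nucleus with the most UMIs. Rarb there (163) was 194 without likely doublets, 193 in clusters made without the 7 genes and 238 as a mean over nuclei, and Aldh1a1 (21.8) was 39.5 as a mean over nuclei. Shares rose with depth. At 2000 UMIs and without thinning Aldh1a2 was in 13.5% and 24.1% of mesenchyme-like nuclei, Rarb in 29.3% and 46.6%, and Aldh1a1 in 42% and 55.4% of adult astrocyte-like nuclei. Rarb was in 18.7% of those without thinning. Rxrg in hypothalamic-like nuclei (13.2) was 0 with 4 markers, which left 1 nucleus, so that this alternative says nothing about its level. The counts of 4 and 2 genes past 4-fold did not change. The other 9 values that moved belong to Aldh1a2 and Rarb in E14 thalamic-like and Aldh1a1 in adult endothelial-like nuclei. No cluster was named choroid plexus-like or hypothalamic-like, so 2 results lack that alternative. Leaving out the top nucleus and adult nuclei under 2% Malat1 were chosen after seeing the data. No paired analysis was possible because each tissue has 1 library. Depth limits Aldh1a3 at E14 and Aldh1a2, Aldh1a3, Cyp26b1 and Rxrg in the adult, with 25 UMIs or fewer each.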

Other observations

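Endothelial-like and microglia-like nuclei carried other retinoid and nuclear receptor genes that belong to no comparison above. In E14 endothelial-like nuclei Ppard, a fatty acid receptor that pairs with retinoid X receptors, stood at 168 CPM (13.8-fold that of all other nuclei, 12.2 to 15.7). In adult endothelial-like nuclei the nuclear receptor gene Nr2f2 stood at 185 CPM (34.9-fold, 25.3 to 48.3) and the retinoic acid receptor gene Rarg at 41.6 CPM (5.81-fold, 3.31 to 9.62). Dhrs3 was high in microglia or macrophage-like nuclei of both libraries, at 112 CPM in E14 (11.7-fold, 8.77 to 15.3) and at 74.4 CPM on 12 UMIs in the adult (9.91-fold, 4.97 to 18.0). In E14 radial glia-like nuclei Rbp4, the secreted retinol carrier, had 19 of 110 UMIs (10.1 CPM, 6.34-fold, 3.65 to 10.5), and in E14 cortical excitatory-like nuclei Crabp1 stood at 8.09 CPM (4.68-fold, 2.83 to 7.43).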
